A study of Mus musculus with 8 samples.

Results

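The comparison described here set R284S cells treated with double-stranded DNA (dsDNA) against human STING cells treated in the same way. It asked which genes of the acute response to DNA stayed below the level that wild-type human STING (hSTING) cells reached, and which matched or exceeded it. The members are 2 of the 8 arrays of the series, chosen by their titles, with 1 array a side and no replicates. All cells were mouse embryonic fibroblasts labelled as primary and STING-/-, and each population was reconstituted with the empty vector pBabe, with hSTING, or with the mutants N154S or R284S, in which serine replaces an asparagine or an arginine. Each construct had a control culture and a culture treated with dsDNA in Lipofectamine 2000 for 9 h. Each construct was a single population, so any difference between constructs includes every other difference between those populations. The labels do not say whether control cultures received the transfection reagent.

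As background, STING sits in the membrane of the endoplasmic reticulum and is switched on by the cyclic dinucleotide that cGAS makes when it meets DNA in the cytosol. STING then recruits the kinase TBK1, which activates IRF3, and also engages NF-kB, so that type I interferons, chemokines and cytokines are transcribed. Secreted interferon acts back on the cells through its receptor and STAT proteins and switches on a second wave of antiviral genes. N154S and R284S are known as gain-of-function forms of STING.

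Values are log2 array signals as deposited. A difference of 1 is 2-fold. A gene counts as 2-fold or more apart only if its signal on the brighter array reached the median of that array's named genes, which was 4.45 for hSTING with dsDNA and 4.46 for R284S with dsDNA. Where the dimmer signal lay below that median, the fold is printed as a lower bound against the median; counts of genes use the signals as read. The mouse gene Sting1 read 3.81 in vector control cells, 3.84 in hSTING, 3.89 in N154S and 3.95 in R284S control cells, and with dsDNA it read 3.68, 4.22, 3.81 and 3.96 in the same order. These signals were all below the array medians, and since human STING was not read out separately they do not check the labels. Of the fibroblast markers, 14 of 14 were at or above the median on every array. The numbers were 1 to 3 of 12 leukocyte markers and 2 to 3 of 8 endothelial markers. They were 3 to 5 of 9 epithelial and keratinocyte markers, 3 to 4 of 7 neural markers and 2 to 4 of 7 muscle markers. Of the 9 epithelial and keratinocyte markers, 2 were 2-fold or more higher in R284S than in hSTING with dsDNA, against 0.956% of all genes. The R284S arrays without and with dsDNA differed by at most 0.41 in 95% of bright genes and by at most 0.66 in 99%. Bright genes were those at or above the array median on either array. These arrays are not replicates, but no pair of replicates exists here.

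Promoters of 3 acute genes are shown. In R284S cells Ifnb1 and Cxcl9 were below hSTING and Cxcl10 was within 2-fold, and no promoter of a gene above hSTING is shown. Ifnb1, which encodes interferon beta, was among the acute genes furthest below hSTING in R284S cells. Cxcl9 and Cxcl10, neighbouring genes for ligands of the chemokine receptor CXCR3, ended far apart and were chosen after their values were seen. The sequences are from RefSeq (GRCm38.p6), run from base 220 to base 61 before the annotated start of the gene, and are written 5′ to 3′ on the gene's strand. Capitals mark matches on either strand to GAAANNGAA, the core of the interferon-stimulated response element (ISRE), or to GGGANNTTC, a core of NF-kB sites. Ifnb1, chr4:88522855-88523014, minus strand, with 1 NF-kB match:
Ifnb1: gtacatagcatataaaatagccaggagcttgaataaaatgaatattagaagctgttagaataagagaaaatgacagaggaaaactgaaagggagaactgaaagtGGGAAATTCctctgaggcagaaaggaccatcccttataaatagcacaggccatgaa
Cxcl9, chr5:92328140-92328299, minus strand, with 1 ISRE match and then 1 NF-kB match:
Cxcl9: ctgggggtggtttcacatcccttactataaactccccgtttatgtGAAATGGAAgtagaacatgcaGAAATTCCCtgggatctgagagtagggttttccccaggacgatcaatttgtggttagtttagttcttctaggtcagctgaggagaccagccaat
Cxcl10, chr5:92348950-92349109, minus strand, with 1 ISRE match and then 1 NF-kB match:
Cxcl10: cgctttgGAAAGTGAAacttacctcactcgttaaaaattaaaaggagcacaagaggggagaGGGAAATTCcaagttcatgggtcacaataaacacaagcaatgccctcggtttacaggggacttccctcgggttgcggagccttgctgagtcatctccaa
Each of the chemokine windows held 1 match to each core. With dsDNA, R284S cells differed from hSTING cells by -3.91 for Cxcl9 and by -0.60 for Cxcl10. Any link between the matches and these differences was not tested.

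With dsDNA, 386 of 22180 genes (1.74%) were 2-fold or more lower in R284S than in hSTING cells and 212 (0.956%) were 2-fold or more higher. In 67 of the 386 and 64 of the 212 the dimmer signal lay below its array median. The lower bound was under 2-fold for 33 of the 386 and 46 of the 212. The acute response of hSTING cells was taken as the 445 genes (2.01%) that were 2-fold or more higher with dsDNA than in hSTING control cells. Of these acute genes, 263 (59.1%) were 2-fold or more lower in R284S cells, 177 (39.8%) were within 2-fold of hSTING and 5 (1.12%) were 2-fold or more higher. The median difference over the 445 genes was -1.13, against 0.02 over all genes, and 420 of the 445 (94.4%) lay below 0. The acute genes were picked by the same hSTING dsDNA array that they are compared with, so part of this direction is set by the choice. Of the 263, 44 had an R284S signal below the array median, and for 17 of those the lower bound was under 2-fold. Of the same 263, 18 had several probe sets, and in 15 of these at least 1 probe set differed by less than 2-fold. Acute genes taken from the N154S arrays, which share no array with the comparison, numbered 84 (0.379%), and 50 of them (59.5%) were 2-fold or more lower in R284S cells, with a median of -1.40.

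**Figure D1:**
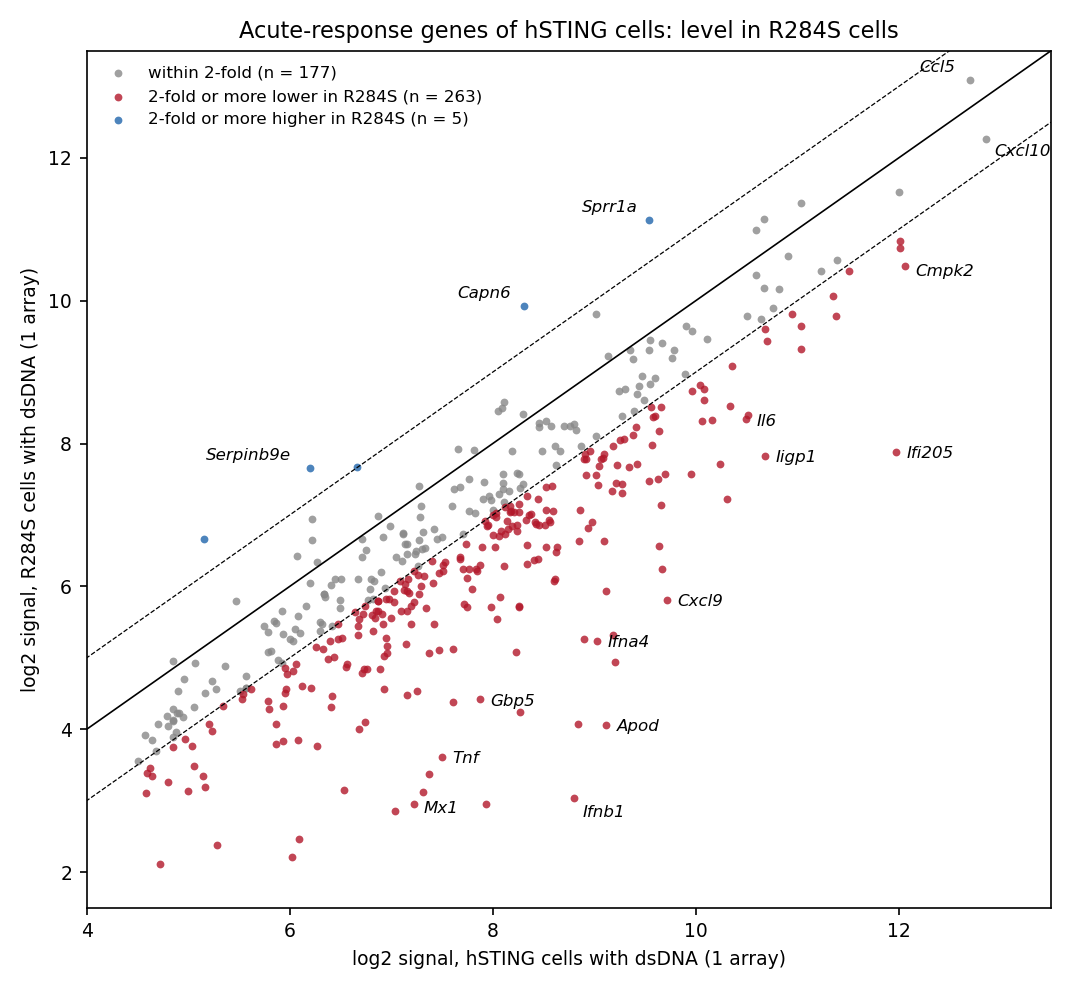
Each point is 1 of the 445 acute genes, with its log2 signal in hSTING cells with dsDNA on the x axis and in R284S cells with dsDNA on the y axis (1 array each). The solid line marks equal signals and the dashed lines 2-fold differences; 263 genes lie on or under the lower dashed line, and Ccl5 and Cxcl10 sit near equality while Ifnb1, Mx1 and Apod lie far below it.

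R284S cells hardly moved with dsDNA: over the 445 acute genes, the median of R284S with dsDNA minus R284S control was 0.09, against 0.54 in N154S and 0.13 in vector cells. Only 6 genes (0.0271%) were 2-fold or more higher and 9 (0.0406%) 2-fold or more lower with dsDNA in R284S cells, against 445 and 111 in hSTING cells. The level an acute gene had with dsDNA in R284S cells was therefore close to its level in R284S control cells. In the 263 genes below hSTING, the median signal was 5.81 in hSTING control, 7.89 in hSTING with dsDNA, 6.09 in R284S control and 6.10 in R284S with dsDNA. In the 177 genes within 2-fold, the corresponding medians were 5.77, 7.28, 6.63 and 6.75. In R284S control cells, 74 of the 263 (28.1%) and 67 of the 177 (37.9%) were already 2-fold or more above vector control, against 1.15% of all genes. The larger the rise in hSTING cells, the larger was the share below hSTING: 93 of 223 genes (41.7%) with a rise of 1 to 1.5, 68 of 94 (72.3%) at 1.5 to 2, 58 of 74 (78.4%) at 2 to 3 and 44 of 54 (81.5%) at 3 or more. That order is in part arithmetic, since a gene with a rise near 1 is 2-fold below hSTING with dsDNA only if it lies at or under the hSTING control level.

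Slc7a11, the cystine importer of the cell surface, was the acute gene that was 2-fold or more higher with dsDNA in R284S cells too. It read 5.31 in vector control and 6.81 in vector cells with dsDNA, 5.53 and 7.68 in hSTING, 4.57 and 6.84 in N154S, and 4.99 and 7.39 in R284S. All 4 populations were thus higher with dsDNA, and R284S differed from hSTING by -0.29. Hmox1, which degrades haem, read 9.34 and 10.62 in vector cells, 9.62 and 10.67 in hSTING, 10.04 and 10.81 in N154S, and 10.35 and 11.14 in R284S cells, without and with dsDNA. Among the 15 measured targets of NRF2, the transcription factor of the antioxidant response, 0 were 2-fold apart between R284S and hSTING with dsDNA, and the median rise with dsDNA was 0.34 in hSTING and 0.36 in R284S cells.

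Interferon genes stayed at control level in R284S cells. Ifnb1 read 3.18 and 3.18 in vector cells without and with dsDNA, 3.21 and 8.80 in hSTING, 2.82 and 4.95 in N154S and 4.06 and 3.04 in R284S. Only hSTING and N154S cells with dsDNA were above the array median, and Ifnb1 was at least 20.3-fold lower in R284S than in hSTING cells with dsDNA. Ifna4 read 4.80 and 9.03 in hSTING cells and 5.29 and 5.24 in R284S cells, a difference of -3.79 with dsDNA. Ifna6 read 3.01 and 7.04 in hSTING cells and 3.42 and 2.86 in R284S cells, at least 5.98-fold lower with dsDNA. In N154S cells Ifna4 read 5.37 with dsDNA and Ifna6 3.38, so the high signals of these alpha interferons were those of hSTING cells. Of 19 measured interferon genes, 5 were acute and all 5 (with Ifna1 and Ifna15) were 2-fold or more lower in R284S. Interferon alpha genes are near-identical copies whose probes may cross-react, so the single members are uncertain. The remaining 14, among them Ifng, Ifne and the lambda genes Ifnl2 and Ifnl3, were not acute. Of these, Ifna11 (1.39 and 3.71) and Ifna2 (2.95 and 4.10) read 2-fold or more higher with dsDNA in hSTING cells. Both stayed below the array median, so they did not count as acute. In R284S cells with dsDNA they read 1.53 and 2.36.

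Of the genes of the machinery that receives interferon, 16.7% were 2-fold or more lower in R284S cells with dsDNA, against 1.74% of all genes. Of 18 receptors, JAK and STAT proteins, interferon regulatory factors and their feedback inhibitors, 4 were acute: Jak2 (-1.28), Irf1 (-1.63) and Irf7 (-1.14) were 2-fold or more lower in R284S cells, and Stat2 (-0.57) was within 2-fold. Irf1, an early factor of the response, read 5.59 and 7.75 in hSTING cells and 6.09 and 6.12 in R284S cells. Irf7, the factor that amplifies alpha interferon, read 9.72 and 10.95 in hSTING cells and 9.66 and 9.81 in R284S cells. The receptor chains Ifnar1 (-0.06) and Ifnar2 (-0.13), Irf3 (0.01) and Irf9 (-0.10) differed by less than 0.2.

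Most acute antiviral effectors were below hSTING. Of 41 measured, 30 were acute. Of those, 25 were 2-fold or more lower in R284S cells and 5 were within 2-fold, against 59.1% and 39.8% of all acute genes. The list's median was -1.28. Mx1, a GTPase that blocks influenza virus, read 2.79 and 2.60 in vector cells, 3.08 and 7.22 in hSTING, 4.45 and 5.97 in N154S and 2.89 and 2.95 in R284S. Its R284S signals lay beside those of vector cells, and it was at least 6.77-fold lower than in hSTING with dsDNA. Ifit1bl1 (at least 11.1-fold lower), Ifit3b (-2.71), Mx2 (-2.51), Oas2 and Oas1g (-2.22 each), and Phf11b (-3.87) were also below. Sp110 had 3 probe sets, which differed by between -3.15 and -0.35. Other effectors were already high without DNA: Ifit1, which binds viral RNA, read 3.94 and 7.35 in vector cells, 9.58 and 12.00 in hSTING, 11.11 and 11.91 in N154S and 11.51 and 11.52 in R284S. Oasl1 (-0.66), Oasl2 (-0.82), Ddx60 (-0.47) and Samd9l (-0.80) were the other 4 within 2-fold. Rsad2, which encodes viperin, and Cmpk2, its neighbouring kinase gene, lay between these groups: Rsad2 read 6.80 and 11.51 in hSTING and 10.30 and 10.42 in R284S cells, and Cmpk2 read 7.07 and 12.06 in hSTING and 10.38 and 10.49 in R284S cells. Both R284S controls stood more than 3 above the hSTING controls, yet with dsDNA the difference was -1.09 for Rsad2 and -1.57 for Cmpk2.

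Interferon-induced GTPases, which attack the membranes around intracellular microbes, were, with the interferon genes, the lists of at least 4 acute members in which every acute member was below hSTING. All 9 acute genes of 12 measured were 2-fold or more lower, with a list median of -1.93. Gbp5 read 4.02 and 7.87 in hSTING and 4.35 and 4.42 in R284S cells, and Iigp1 read 6.98 and 10.68 in hSTING and 7.35 and 7.83 in R284S cells. Gbp4 (at least 3.10-fold lower) and Gbp9 (-2.52) were below hSTING as well. Irgm1 (-0.37) was not acute. The ISG15 conjugation genes had 4 of 5 acute members below hSTING: the deconjugase Usp18 (-1.27), the ligase Herc6 (-1.46), the activating enzyme Uba7 (-1.40) and the conjugating enzyme Ube2l6 (-1.36), while the ligase Trim25 (-0.64) was within 2-fold. Isg15 itself read 10.74 and 11.46 in hSTING and 10.89 and 10.92 in R284S cells and was not acute. Of the TRIM, PARP and Schlafen genes, 11 of 14 acute members were below hSTING, among them Slfn5 (-2.68), Parp14 (-1.74) and Trim21 (-1.53). Over all acute genes the share below hSTING was 59.1%.

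Nucleic acid sensors leaned the same way. Of 26 measured, 13 were acute, 11 below hSTING and 2 within 2-fold, against 59.1% and 39.8% of all acute genes. The Ifi200 family of DNA-binding proteins included Ifi209, which read 2.81 and 3.0 in vector cells, 4.13 and 9.20 in hSTING, 8.14 and 8.85 in N154S and 4.19 and 4.94 in R284S. Ifi205 read 4.17 and 6.02, 8.39 and 11.97, 9.71 and 10.94, and 7.91 and 7.88 in the same order. The differences of R284S from hSTING with dsDNA were -4.26 and -4.09, while N154S cells with dsDNA were above 8 for Ifi209 and above 10 for Ifi205; probes of this family can cross-react. Tlr3, the endosomal sensor of double-stranded RNA, read 7.01 and 10.31 in hSTING and 7.11 and 7.23 in R284S cells. The 2 within 2-fold were Ifih1, the RNA sensor MDA5, at 8.33 and 11.39 in hSTING and 10.53 and 10.57 in R284S, and Zbp1, a sensor of Z-form nucleic acid, which differed by -0.48. Cgas (-0.97), Tbk1 (-0.28) and Mavs (0.36) were within 2-fold and not acute.

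The class I antigen presentation list, which also holds the checkpoint gene Cd274, was below hSTING in 10 of 13 acute members of 21 measured. Its median was -0.79, and over all acute genes the share below hSTING was 59.1%. Cd274, the checkpoint ligand PD-L1, read 5.25 and 9.12 in hSTING and 5.96 and 5.94 in R284S cells. The peptide transporter Tap1 (-2.13), the immunoproteasome subunits Psmb10 (-1.83), Psmb9 (-1.67) and Psmb8 (-1.06) and the class I gene H2-Q4 (-1.37) were lower. H2-K1 (-0.38), the peptide-loading protein Tapbp (-0.64) and the trimming peptidase Erap1 (-0.68) were within 2-fold. B2m, the shared light chain, differed by -0.07.

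The chemokine list had 24 measured genes, among them the receptor genes Ccrl2 and Ackr3. Of these 24, 15 were acute, of which 8 were 2-fold or more lower and 7 within 2-fold. That division was near the 59.1% and 39.8% of all acute genes. Ccl5, which attracts T cells, read 4.74 and 4.89 in vector cells, 8.60 and 12.70 in hSTING, 12.22 and 12.79 in N154S and 13.01 and 13.09 in R284S. R284S cells without DNA thus read slightly above hSTING cells with DNA. These Ccl5 signals were close to the highest signals on their arrays. How well the arrays resolve differences at that level was not tested. Cxcl10 read 5.13 and 8.21 in vector cells, 8.98 and 12.86 in hSTING, 11.33 and 12.59 in N154S and 12.21 and 12.26 in R284S, and Cxcl11 read 4.14 and 9.89 in hSTING and 8.99 and 8.97 in R284S. Cxcl9, the remaining CXCR3 ligand, read 3.15 and 4.33, 5.51 and 9.72, 7.68 and 8.45, and 5.69 and 5.81 in the order of Cxcl10, so that R284S was 15.03-fold lower than hSTING with dsDNA. Ccl12 (at least 7.21-fold lower), the chemerin-binding receptor Ccrl2 (at least 14.03-fold lower), Ccl4 (-1.95) and Cxcl2 (-1.94) were also below, and Ccl3 (-0.57), Cxcl3 (-0.84), Cxcl16 (-0.89) and Ccl20 (-0.87) were within 2-fold. In control cells, 8 of the 24 genes of the list were 2-fold or more higher in R284S than in hSTING, against 0.703% of all genes.

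**Figure D2:**
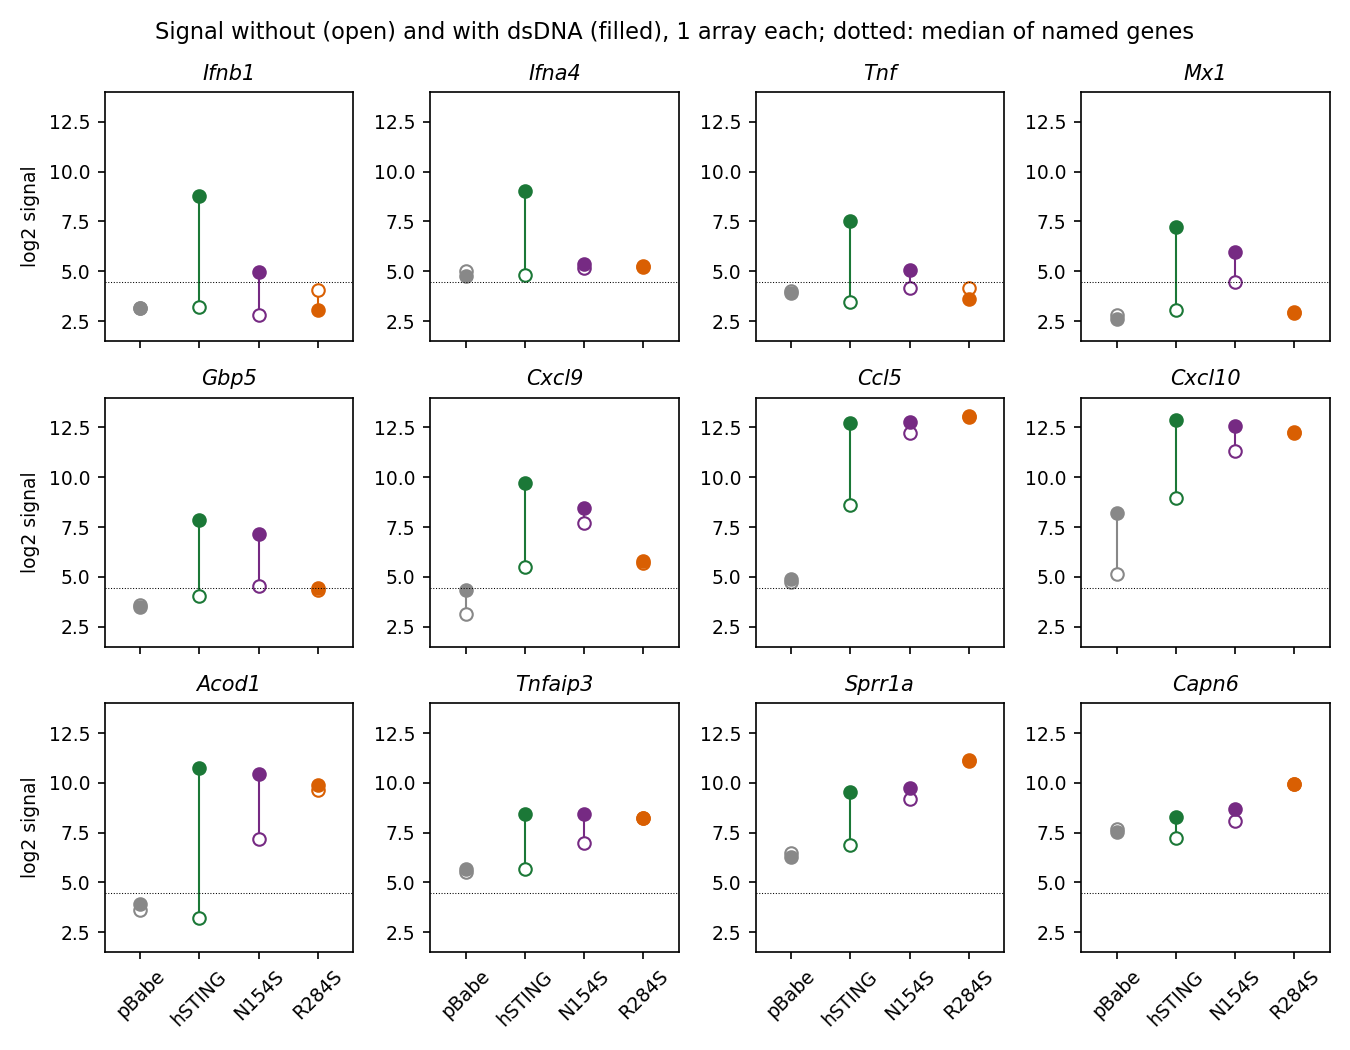
Log2 signal (y axis) of 12 genes on the 8 arrays, by construct (x axis), with open circles for control cells, filled circles for dsDNA and a dotted line at the median of named genes of the hSTING dsDNA array. In R284S cells the open and filled circles nearly coincide in most panels, low for Mx1, Gbp5 and Cxcl9 and high for Ccl5, Cxcl10 and Acod1.

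Inflammatory cytokines and enzymes had 19 acute genes among 40 measured, 12 below hSTING and 7 within 2-fold, again near the 59.1% of all acute genes below hSTING. Tnf read 4.02 and 3.90 in vector cells, 3.44 and 7.50 in hSTING, 4.16 and 5.08 in N154S and 4.18 and 3.61 in R284S, at least 8.22-fold lower in R284S than in hSTING with dsDNA. Il33, an alarmin, read 4.54 and 9.64 in hSTING and 6.64 and 6.57 in R284S cells, and Il6 read 7.48 and 10.50 in hSTING and 8.29 and 8.34 in R284S cells. Both stood higher in R284S than in hSTING control cells and lower with dsDNA. Il18 (at least 3.51-fold lower), Il15ra (-2.37) and Lif (-1.29) were below hSTING too, and Csf2 differed by -2.04 on 1 probe set and -0.70 on the other. Acod1, which makes itaconate, read 3.63 and 3.91 in vector cells, 3.24 and 10.76 in hSTING, 7.18 and 10.42 in N154S and 9.65 and 9.90 in R284S, and so had the largest rise in hSTING cells of any gene while R284S stayed within 2-fold. Nos2 (0.26), Il1a (-0.16), the prostaglandin synthase Ptges (-0.23), Mmp10 (-0.29) and the collagenase Mmp13 (0.33) were also within 0.5.

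Among NF-kB subunits, inhibitors and targets, 11 of 31 were acute, 6 below hSTING and 5 within 2-fold, also near the share over all acute genes. Tnfaip3, the deubiquitinating brake on NF-kB also called A20, read 5.67 and 8.46 in hSTING and 8.24 and 8.23 in R284S cells. Its partner gene Tnip3 (0.12), the inhibitors Nfkbia (-0.73) and Tnip1 (-0.77) and the adhesion molecule Icam1 (-0.65) were the others within 2-fold. The inhibitor Nfkbie (-1.45), the subunits Nfkb2 (-1.10) and Rel (-1.07), the scaffold Tnfaip2 (-1.26), Vcam1 (-1.39) and Cd40 (-1.13) were below. Of the cell death genes, 6 of 7 acute members were below hSTING, among them the necroptosis effector Mlkl (-1.82), Daxx (-2.07), Casp4 (-1.25) and the pore former Gsdmd (-1.23, and -0.70 on its other probe set). The immediate early list had 4 of 5 acute members below hSTING, with Atf3 at -2.47, Zfp36 at -2.08 and Egr1 at -2.03. Nr4a3, dim in R284S cells, was at least 1.42-fold lower. For the cell death and immediate early lists, the share to set beside these counts is the 59.1% of all acute genes below hSTING.

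**Figure D3:**
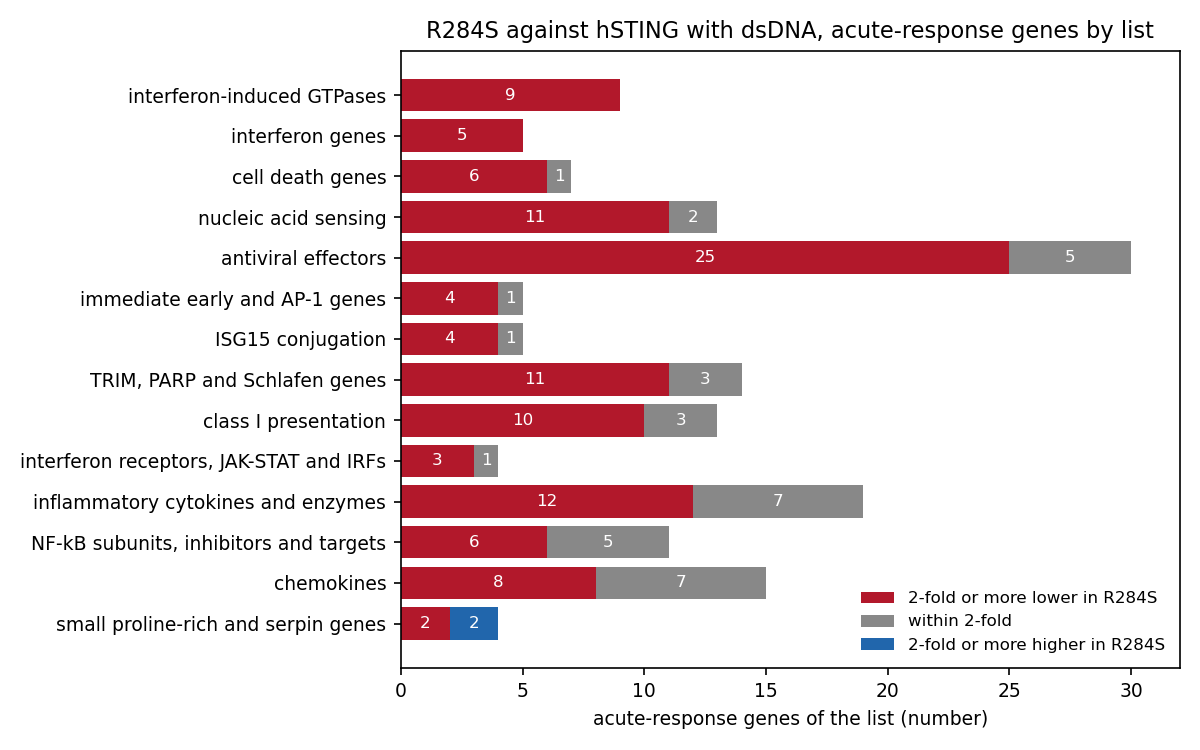
Number of acute genes (x axis) of each gene list with at least 4 of them, divided by colour into those 2-fold or more lower in R284S than in hSTING with dsDNA, within 2-fold, and 2-fold or more higher. The 9 GTPases and 5 interferon genes are all lower, and the 15 genes of the chemokine list divide into 8 and 7. Only the small proline-rich and serpin genes hold members that are higher (2 of 4).

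R284S cells exceeded hSTING with dsDNA by 2-fold or more at 5 acute genes. Sprr1a, a small proline-rich protein of the cornified envelope, read 6.48 and 6.30 in vector cells, 6.87 and 9.54 in hSTING, 9.18 and 9.76 in N154S and 11.11 and 11.13 in R284S. Capn6, a calpain-family protein without protease activity, read 7.67 and 7.55, 7.22 and 8.31, 8.08 and 8.70, and 9.96 and 9.92 in the same order. For both genes the R284S signals were the highest of the 8 arrays, with and without dsDNA. Slc22a23 (1.51), the serine protease inhibitor Serpinb9e (1.46) and the peptidase Mme (1.01) made up the rest. All 5 were 2-fold or more above vector cells in R284S control cells. A further 20 acute genes lay above hSTING by less than 2-fold, with Lilrb4a (0.80) and Asb5 (0.73) at the upper end and Hmox1 (0.47), Oxr1 (0.47), Penk (0.40) and Vegfc (0.40) among the rest. At the 2-fold line, Tdrd7, Cdk14 and Kat2b at -1.0 counted as below hSTING and Kcnk10, Itga2 and Rbm47 at -0.99 did not.

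Promoters were searched over the 250 bases before the start on both strands, and 197 of the 263 genes below hSTING matched 252 RefSeq promoters while 138 of the 177 within 2-fold matched 188. The ISRE core was in 19.8% of the first set and 13.8% of the second, against 7.13% of all 32851 promoters. Among genes 3-fold or more below hSTING it was in 29.5% of 105 promoters. The NF-kB core was in 7.54%, 3.19% and 3.23% of the 3 sets, TTCNNNGAA, the STAT-binding GAS core, in 10.3%, 5.32% and 7.02%, and TGACTCA, the AP-1 site, in 9.13%, 6.91% and 4.46%. The cyclic AMP element TGACGTCA was in 3 of the 252 promoters, 2 of the 188 and 1.55% of all. In the 105 promoters of genes 3-fold or more below hSTING, the NF-kB and GAS cores were each in 10.5%. The AP-1 site was in 8.57% of those 105. Acute genes within 0.5 of hSTING or above it had 77 promoters. The AP-1 site was in 15.6% of these 77, the ISRE core in 14.3%, the NF-kB core in 5.19% and the GAS core in 2.60%. The GAS letters can overlap those of the ISRE core. These shares describe letters in a window and carry no test.

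The 111 genes (0.5%) that were 2-fold or more lower with dsDNA in hSTING cells were mostly within 2-fold in R284S cells. In R284S cells with dsDNA, 28 of them (25.2%) read 2-fold or more higher than in hSTING, including Rps16, which was below the array median on both arrays with dsDNA; 82 were within 2-fold and 1, the tubulin gene Tuba1b (-1.53), was lower still, with a median of 0.69. Osr1, a mesenchymal transcription factor, read 8.05 and 8.06 in vector cells, 8.0 and 6.11 in hSTING, 8.59 and 7.50 in N154S and 7.88 and 7.38 in R284S. The checkpoint kinase Chek2 was also less low, by 1.45, and Setbp1, dim in hSTING cells with dsDNA, was at least 1.81-fold higher. Dact1, a modulator of Wnt signalling, differed by 1.58 on 1 probe set and by -0.01 on the other. The Notch ligand Jag1 (0.19) and Edn1 (0.68), which encodes endothelin, were within 2-fold, and both read lower in R284S than in hSTING control cells. Of 16 sterol synthesis genes, 0 were 2-fold apart with dsDNA, and their median was 0.49; Sqle read 8.05 and 6.83 in hSTING and 7.66 and 7.77 in R284S cells, and Dhcr7 read 6.73 and 5.60 in hSTING and 6.17 and 6.29 in R284S cells. For acutely lower genes taken from the N154S arrays, 24 in all (0.108%), 3 (12.5%) were less low in R284S.

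Some of the differences outside the acute response were there without DNA as well. In control cells, which use other arrays of the same populations, 156 genes (0.703%) stood at least 2-fold above hSTING in R284S cells and 107 (0.482%) at least 2-fold below. Of the 386 genes lower with dsDNA, 263 (68.1%) were acute and 122 (31.6%) belonged to neither acute set; 54 of those 122 were also 2-fold or more lower in control cells. Of the 212 genes higher with dsDNA, 180 (84.9%) belonged to neither acute set, and 42 of those were 2-fold or more higher in control cells. Among the 212, 192 (90.6%) were also higher in control cells by any amount, against 51.3% of all genes, while among the 386, 196 (50.8%) were also lower in control cells, against 46.9%.

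**Figure D4:**
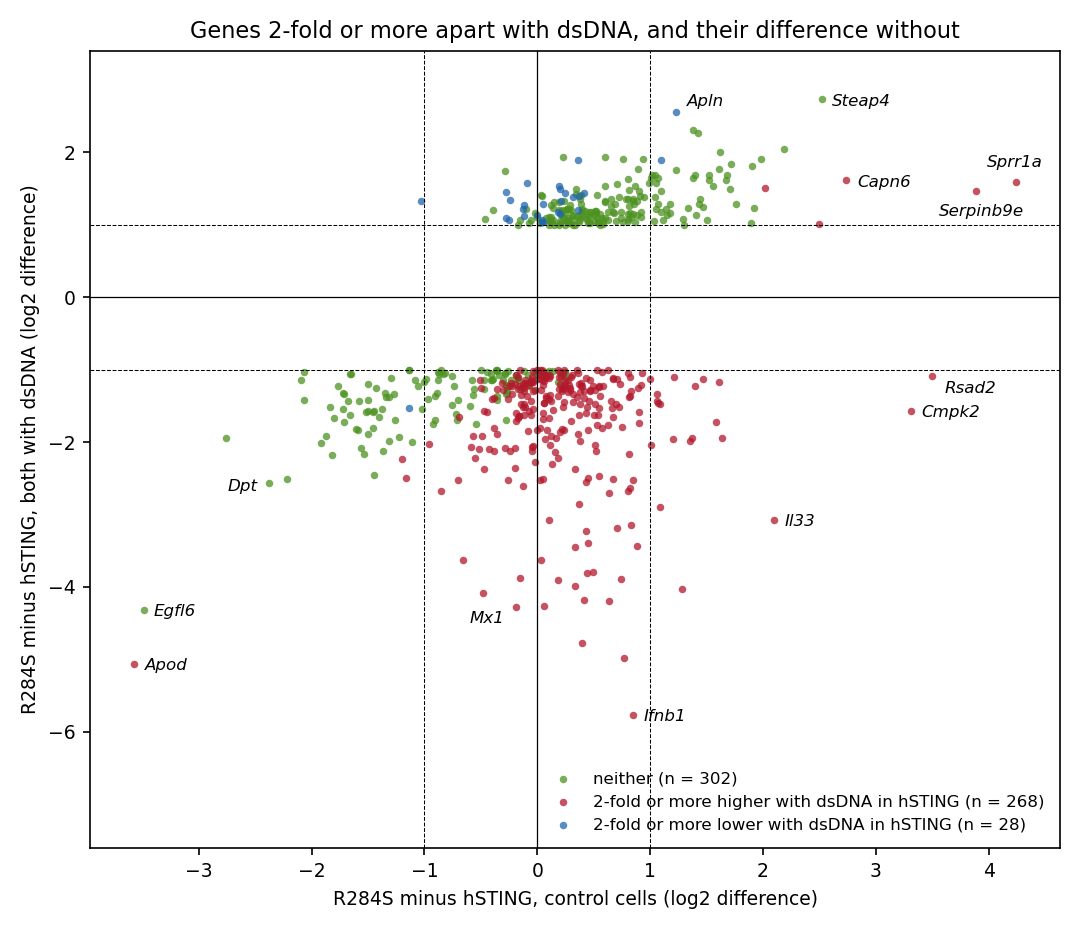
Each point is 1 of the 212 higher or 386 lower genes 2-fold or more apart with dsDNA, placed by the log2 difference of R284S minus hSTING in control cells (x axis) and with dsDNA (y axis); dashed lines mark 2-fold. The acute genes Ifnb1 and Mx1 lie low in the plot with control differences near 0 or above. The acute gene Apod lies low on both axes, as do Egfl6 and Dpt, which were not acute. The acute genes Capn6 and Sprr1a lie high on both, as does Steap4, which was not acute.

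The design allows 1 fit across all genes, limma with construct and treatment as terms over the 8 arrays, which tests R284S against hSTING averaged over control and dsDNA cells. It called 113 genes (0.509%) higher and 98 (0.442%) lower at an adjusted p of 0.05. Without the vector arrays the counts were 33 and 46, and without the N154S arrays 17 and 30, so the number of calls depends on these arrays, and leaving them out also took the residual degrees of freedom from 3 to 2. Apod and Capn6 lost their calls without the N154S arrays (adjusted p = 0.061 and 0.0962 by limma). Of the 263 acute genes below hSTING 1 passed, Apod, and of the 5 above it 2 passed, Capn6 and Slc22a23. Of the 177 within 2-fold 0 passed in limma. At an unadjusted p under 0.05 in limma were 66 of the 263, 5 of the 5 and 18 of the 177. Over all 22180 genes the number was 3037. The residual of the fit holds the uneven dsDNA changes of the constructs, and its median SD was 0.58 for the 263 genes and 0.15 for all genes. Of the 122 lower genes outside the acute response 61 passed, and of the 180 higher ones 64 passed. All these sets were chosen with 2 of the arrays that the fit uses, so their counts of passes are a description.

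Of 44 matrix genes measured, 14 were 2-fold or more lower in R284S cells with dsDNA, against 1.74% of all genes, and 17 in control cells, against 0.482%; the list median with dsDNA was -0.58. In the limma fit 19 of the 44 fell, against 0.442% of all genes, of which 13 still passed without the vector arrays and 11 without the N154S arrays. Egfl6, a secreted matrix protein, read 9.11 and 9.16 in vector cells, 8.38 and 8.68 in hSTING, 7.33 and 7.41 in N154S and 4.89 and 4.36 in R284S, a fitted difference of -3.91 (SE 0.20, adjusted p = 0.00234 by limma; -3.86 with the dim signal set to its array median). Dermatopontin, Dpt, read 8.45 and 8.34, 8.19 and 8.02, 7.30 and 6.81, and 5.81 and 5.46 in the same order and fell by 2.47 (SE 0.14, adjusted p = 0.00297 by limma). The collagen VI chains Col6a1, Col6a2 and Col6a3, the proteoglycans Fmod, Aspn and Prelp, the Wnt antagonist Sfrp1 and the glypican Gpc3 were among the others that fell. Sfrp1 lost its call without the vector arrays (adjusted p = 0.0582 by limma) and without the N154S arrays (0.0639), and Col6a3 without the N154S arrays (0.0541). Prelp differed with dsDNA by -1.55 on 1 probe set and -0.26 on the other. Fn1 (0.29), Lox (0.12) and Dcn (0.18) differed little with dsDNA. Apod, a lipocalin that carries lipids, was acute and was also low throughout: it read 4.62 and 4.11 in vector cells, 7.44 and 9.12 in hSTING, 8.97 and 8.92 in N154S and 3.87 and 4.06 in R284S. Its fitted difference was -4.32 (SE 0.45, adjusted p = 0.0138 by limma; -3.82 with dim signals at their array medians). Of the 14 fibroblast markers, which include collagen genes of the matrix list, 3 fell in the fit and 1 still passed when the vector or the N154S arrays were left out in turn; what part of these differences comes from the make-up of the populations was not tested.

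Of 30 genes of ATF4 and the unfolded protein response, 5 were 2-fold or more lower with dsDNA and 6 fell in the limma fit: Slc7a5, a transporter of large neutral amino acids (-1.97, adjusted p = 0.0054), the serine synthesis enzymes Psat1 (-1.31) and Phgdh (-1.15), the mitochondrial folate enzyme Mthfd2 (-1.35), asparagine synthetase Asns (-0.92) and Chac1 (-1.19). Of these 6, 4 still passed without the vector arrays and 2, Slc7a5 and Mthfd2, without the N154S arrays. Slc7a5 read 9.96 and 9.80 in vector cells, 10.10 and 10.27 in hSTING, 8.98 and 9.32 in N154S and 8.18 and 8.25 in R284S, so that R284S cells were lowest under both treatments. The chaperones Hspa5 (-0.19) and Hsp90b1 (0.01) of the same list differed little with dsDNA. Of 36 cell cycle genes, 1 was 2-fold or more lower with dsDNA, Cenpe (-1.09), with a list median of -0.40; the 2 that fell in the fit no longer passed without the vector arrays or without the N154S arrays.

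Of the 15 genes with the highest differences with dsDNA, Apln, Acot1 and Cd24a were acutely lower genes of hSTING cells and the others belonged to neither acute set. Steap4, a metalloreductase, read 6.58 and 6.42 in vector cells, 5.82 and 5.81 in hSTING, 6.29 and 6.31 in N154S and 8.34 and 8.54 in R284S, and rose by 2.63 in the limma fit (SE 0.13, adjusted p = 0.00234). R284S cells were alone above 8 for this gene, with and without DNA. Akr1c18, an aldo-keto reductase that inactivates progesterone, read 6.92 and 7.11, 6.54 and 6.61, 8.42 and 8.0, and 8.73 and 8.66 in the same order (fitted 2.12, SE 0.17, adjusted p = 0.00595 by limma). H2-Ab1, a class II chain, read 5.91 and 5.62 in hSTING and 7.53 and 7.62 in R284S cells (fitted 1.81, SE 0.14, adjusted p = 0.0054 by limma), and of 8 class II genes it was the 1 member 2-fold apart. Apln, the peptide apelin, read 5.66 and 5.66 in vector cells, 5.92 and 4.73 in hSTING, 7.0 and 6.58 in N154S and 7.15 and 7.28 in R284S; it was higher by 2.55 with dsDNA and counted among the acutely lower genes of hSTING cells. Rragd, a GTPase of amino acid signalling at the lysosome, differed by 2.27, and the decoy interleukin receptor Il13ra2 was at least 2.19-fold higher. Lcn2 (1.07) and Il13ra2 were the 2 inflammatory genes 2-fold or more higher, and both passed the fit, Lcn2 not without the N154S arrays (adjusted p = 0.0655 by limma). Of 18 lysosome genes and 11 reference genes, 0 were 2-fold apart with dsDNA, with medians of 0.22 and 0.24.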

How the data were processed

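The authors deposited log2 values of 41345 probe sets for each of 8 Affymetrix arrays, 1 per construct and treatment. Per the labels' protocols, 300 ng of total RNA was prepared with the GeneChip WT PLUS kit, and the submitters' processing notes name the software Affymetrix Expression Console (version 1.3.1.187). Which background correction, normalization and summary method it ran is not stated in the sources used here. Array medians over named genes were 4.42 to 4.47 and Pearson's r between arrays was 0.973 to 0.989, so the deposited log2 values were already on a common scale. Such values lack a true zero and understate large changes, and detection calls were not used. Precision is limited by the number of arrays.

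Gene symbols came from the platform annotation: 23521 had 1 symbol and were used, 1814 had several and 16010 were not listed. For 1082 genes with several probe sets, the one with the highest mean was taken, which left 22180 genes. Differences between 2 arrays have no replicate check and no p. Acute genes, gene lists and members were chosen with earlier results of these data known. Named were the genes with the 15 highest and lowest differences, the 15 largest acute rises, the 15 acute genes furthest below and above hSTING, the 10 largest acute falls, up to 10 genes per direction in the fit, and list members. The fit used limma 3.58.1 in R 4.3.3 (lmFit, eBayes, Benjamini-Hochberg over 22180 genes at 0.05), with 3 residual degrees of freedom. Because the residual takes in any unevenness of the dsDNA effect across constructs, its p-values do not measure the spread between replicate cultures. The fit was also run on simulated data built from the same additive terms with independent noise. That run holds no uneven dsDNA effects and so cannot say how the fit copes with them. Alternatives changed the filter on dim genes, the normalization, the probe set rule, the fold and the acute list.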

Additional observations from a re-analysis of the deposited data

Results flagged for a closer look

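Ifnb1 was higher with dsDNA in hSTING cells and lower in R284S cells, by -1.02; both R284S signals were below the array median, so the lower value is not read as a change in expression, and the difference between the populations was not tested. The small nucleolar RNA Snora44 was flagged for the same opposite movement, at -1.93 in R284S cells (7.40 to 5.47) against 5.82 to 7.2 in hSTING cells, and this was not tested either. Of the 1814 probe sets with several gene symbols, which enter no comparison above, 20 had a signal at least 2-fold higher with dsDNA in R284S than in hSTING cells and 30 a signal at least 2-fold lower.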

How the results depend on the processing

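Under median centring, quantile normalization and the mean of probe sets, 188 recomputed values of named genes and 93 list medians moved by less than the SD of the difference between the R284S arrays, 0.21, and 4 values moved by more. Median centring, quantile normalization, the mean of probe sets, no filter on dim genes and protein-coding genes alone kept each count of genes within 1.5 times its value. With the brighter array at or above its 75th percentile, 95 genes were 2-fold or more higher and 64.1% of acute genes were below hSTING. With a fold of 1.5, 967 genes were higher and 886 lower, and 40.0% of acutely lower genes were less low. With a fold of 3, 32 were higher and 144 lower, 46.6% of acute genes were below hSTING and 0% of acutely lower genes were less low. With acute genes from the N154S arrays, 12.5% of acutely lower genes were less low. The fit called 322 higher and 262 lower genes with a trend and robust variances, 239 and 190 after a filter on dim genes, 33 and 46 without the vector arrays, and 17 and 30 without the N154S arrays; the causes were not tested. With the mean of probe sets, Cd24a moved from 1.89 to 1.5, Dact1 from 1.58 to 0.79, Nynrin from 1.34 to 0.76 and Trav9d-3 from 0.37 to -0.01. No paired analysis was possible because each construct and treatment had 1 array and the labels give no replicate numbers. Dim R284S signals limit the folds of Ifnb1, Ifna6 and Ifna15 to lower bounds, whereas Ifna1 and Ifna4 were above the median on both arrays.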

Other observations

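A set of genes outside the lists, chosen after their values were seen, was higher in R284S than in hSTING cells with dsDNA. Egln1 and Egln3, the prolyl hydroxylases that mark HIF proteins for degradation, read 7.55 and 7.34 in hSTING and 9.03 and 8.99 in R284S cells, differences of 1.48 and 1.65. Bnip3, a mitophagy receptor, differed by 1.77, Ndrg1 by 1.69, the kinase Pdk1, which restrains pyruvate dehydrogenase, by 1.38, the oxidoreductase Ero1a by 1.17 and Ccng2 by 1.77. In control cells the differences were 0.81 for Egln1, 1.38 for Egln3, 1.61 for Bnip3, 1.04 for Ndrg1, 0.72 for Pdk1, 0.92 for Ero1a and 0.89 for Ccng2. On their other probe sets Ndrg1 differed by 0.18, Pdk1 by 0.28 and Ero1a by 0.63 with dsDNA. In the limma fit over both treatments the adjusted p was 0.0477 for Egln1, 0.00956 for Egln3, 0.0054 for Bnip3, 0.0237 for Ndrg1 and 0.0322 for Ero1a, and 0.0607 for Pdk1 and 0.0776 for Ccng2. Egln3 and Bnip3 still passed without the vector arrays and without the N154S arrays, whereas Egln1, Ndrg1 and Ero1a passed in neither. The genes were picked with arrays that the fit uses, and no theme is read from them.

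The 6 genes that were 2-fold or more higher with dsDNA in R284S cells were led by Slc7a11 (2.40) and Selenbp1 (1.39). Selenbp1, which encodes a selenium-binding protein, read 4.26 and 4.22 in vector cells, 4.34 and 3.70 in hSTING, 4.40 and 4.08 in N154S and 4.05 and 5.44 in R284S.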
